A study of Mus musculus with 5 samples.

Results

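At 4787 promoter positions, a peak of acetylation of histone H3 at lysine 9 (H3K9ac) was listed in only 1 of 2 conditions although the other condition had a peak close by. A peak missing from a list does not show that acetylation was missing, as the reads were not examined. These positions were chosen from 67641 peaks in all, 34286 in the list for cells treated with 4-deoxypyridoxine (DOP) and 33355 in the list for untreated cells. A peak was taken when its centre lay within 1 kb of the start of a protein-coding transcript, its 200 bp interval overlapped no peak of the other list, and a centre of the other list lay within 2 kb. The rule took 2625 DOP peaks, or 10.4% of the 25276 promoter peaks of that list, and 2162 untreated peaks, or 8.65% of 25008. The same criteria applied to all peaks took 10.9% of the DOP list and 9.63% of the untreated list. Away from promoters they took 12.2% and 12.6%, so neither promoter share exceeded that of the other peaks. The choice used the positions of the peaks in both lists, and counts of such peaks and their distances to the other list are descriptions without a test. The peaks taken are called unshared promoter events in what follows.

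All samples were STHdh Q111 cells (genotype STHdhQ111/Q111, strain C57BL/6), a line of mouse striatal progenitors in which mutant huntingtin carries an expanded CAG repeat. Treated cells (2 samples) received 4 mM DOP, an inhibitor of sphingosine-1-phosphate lyase, in serum-free medium for 24 h, and untreated cells (2 samples) received vehicle in serum-free medium, so that both groups were starved of serum. A sample with normal rabbit IgG from untreated cells (1 sample) was not analysed here. The authors deposited 1 list per condition, and the share of each sample in a call, the read depth and any error between replicates are not known. Every difference below is therefore a difference between 2 lists. Intervals in parentheses are 95% Wilson intervals, which cover counting error only. At the marker genes of neural progenitors and of the striatal lineage, promoter events were listed in both conditions for Vim, Hes1, Dlx1, Ebf1 and Foxp1, and in neither for Nes, Sox2, Pax6, Gsx2, Dlx2 and Bcl11b. Among markers of glia, Slc1a2 had 1 event in the DOP list and 2 in the untreated list, Mbp had 2 and 0, and Gfap, Aqp4, Mog, Aif1, Cx3cr1 and Ptprc had none.

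H3K9ac is a mark of active promoters, where it is laid down by acetyltransferases, removed by deacetylases and read by proteins with a bromodomain or YEATS domain. It sits on the nucleosomes on either side of the transcription start, with a gap over the start itself where nucleosomes are depleted, and usually reaches farther into the transcribed region than upstream of it. GPS, the program used by the authors, places each enriched site at a single base, called an event, so that a broad acetylated promoter is resolved into several events along its nucleosomes.

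The intervals of 3 genes with an added event and of 2 genes with a displaced pair are printed first, because they show what an unshared promoter event is made of. They are from the mm9 (NCBIM37) assembly, read 5′ to 3′ along the strand of the gene, with every CpG in capitals. The paired intervals of H3f3b lie end to end, and those of Cdk13 are 241 bp apart from centre to centre.
Cdk13, DOP event of a pair, chr13:17895953-17896152, minus strand: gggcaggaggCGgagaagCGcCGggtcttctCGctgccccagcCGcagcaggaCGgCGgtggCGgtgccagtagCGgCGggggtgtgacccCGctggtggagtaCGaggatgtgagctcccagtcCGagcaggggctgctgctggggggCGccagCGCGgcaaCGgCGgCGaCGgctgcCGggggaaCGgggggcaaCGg
Cdk13, untreated event of a pair, chr13:17896194-17896393, minus strand: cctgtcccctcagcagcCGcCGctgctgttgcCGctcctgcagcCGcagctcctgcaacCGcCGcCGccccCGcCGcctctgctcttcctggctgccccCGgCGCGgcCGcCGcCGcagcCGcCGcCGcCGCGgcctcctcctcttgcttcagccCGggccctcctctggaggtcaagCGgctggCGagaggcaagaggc
H3f3b, DOP event of a pair, chr11:115885047-115885246, minus strand: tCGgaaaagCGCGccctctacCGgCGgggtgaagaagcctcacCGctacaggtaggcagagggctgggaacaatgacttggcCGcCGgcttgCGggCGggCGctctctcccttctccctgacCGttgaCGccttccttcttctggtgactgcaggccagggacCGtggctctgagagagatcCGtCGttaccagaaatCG
H3f3b, untreated event of a pair, chr11:115884847-115885046, minus strand: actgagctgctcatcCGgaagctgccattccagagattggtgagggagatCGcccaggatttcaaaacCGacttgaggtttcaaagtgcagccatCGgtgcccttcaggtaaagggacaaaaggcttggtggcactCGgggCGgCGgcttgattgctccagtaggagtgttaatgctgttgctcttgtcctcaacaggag
5031425E22Rik, added DOP event, chr5:22939819-22940018, minus strand: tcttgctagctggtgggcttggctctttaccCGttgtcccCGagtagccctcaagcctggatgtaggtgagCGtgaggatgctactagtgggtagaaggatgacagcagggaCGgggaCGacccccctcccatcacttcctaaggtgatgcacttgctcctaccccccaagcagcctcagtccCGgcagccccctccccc
Anp32e, added DOP event, chr3:95733705-95733904, plus strand: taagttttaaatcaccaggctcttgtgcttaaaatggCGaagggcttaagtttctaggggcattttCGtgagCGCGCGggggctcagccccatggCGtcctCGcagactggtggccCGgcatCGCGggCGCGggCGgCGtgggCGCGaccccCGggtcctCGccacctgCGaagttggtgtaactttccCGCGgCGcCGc
Gga3, added untreated event, chr11:115464967-115465166, minus strand: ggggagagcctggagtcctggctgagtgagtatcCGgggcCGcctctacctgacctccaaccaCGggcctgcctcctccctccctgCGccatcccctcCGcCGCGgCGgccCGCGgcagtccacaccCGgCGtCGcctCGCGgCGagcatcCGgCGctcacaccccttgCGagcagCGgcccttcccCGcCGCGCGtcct
In these intervals the number of CpG ranged from 6 at 5031425E22Rik to 24 at Gga3. Cdk13 had 23 CpG at both positions, with a GC content of 75.5% in the DOP interval and 77% in the untreated interval, whereas H3f3b had 17 in the DOP interval and 7 in the untreated one. These are among the highest-scoring unshared events, and the typical one held less CpG. The median was 6 per 200 bp in both lists (quartiles 4 and 10 for DOP, 3 and 10 for untreated), against 14 at promoter peaks shared between the lists (quartiles 8 and 21). Median GC content was 52.5% in the DOP list and 51% in the untreated list, against 63.5% at the shared promoter peaks of either list. Part of this gap went with position, since shared peaks 400 to 1000 bp downstream of the start had a median of 57%. Unshared events at the same distance had 51% in the DOP list and 49% in the untreated list. From 200 to 400 bp upstream the medians were 52% and 51% for unshared events and 56.5% and 57% for shared peaks.

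Under the definitions used, most unshared promoter events counted as extra events beside a shared one and not as partners of an unshared event of the other list. The split does not show that displacement was rare. An event displaced from a peak that also overlaps another peak counts as extra. An event was called added when each centre of the other list within 2 kb belonged to a shared peak. A peak counted as shared when it overlapped any peak of the other list. Several peaks of a list could thus overlap the same peak of the other list, as at Dlgap4. Added events numbered 2164 in the DOP list, or 82.4% (80.9% to 83.8%) of its unshared promoter events, and 1727 in the untreated list, or 79.9% (78.1% to 81.5%). An event was called paired when it and an unshared event of the other list were each other's nearest, and this held for 398 DOP and 393 untreated events. The remaining 63 and 42 events had an unshared event of the other list in reach that was nearer to another one, and they were not resolved. Of the other promoter peaks, 22104 in the DOP list and 22476 in the untreated list overlapped a peak of the other list, and 547 and 370 were more than 2 kb from any centre of the other list.

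The boundaries of the rule did not fall at gaps in the distances. Intervals of 200 bp stop overlapping at a distance of 200 bp between centres, and 100 DOP and 96 untreated events lay 200 to 209 bp from the other list, just inside, while 115 and 107 promoter peaks that still overlapped lay 190 to 199 bp from it. At the outer edge, 72 DOP and 69 untreated events lay 951 to 1000 bp from a start, and 62 and 58 that met the other criteria lay 1001 to 1050 bp away. The largest distance to the other list was 1921 bp for DOP and 1939 bp for untreated events, and the nearest promoter peaks beyond reach were at 2034 and 2104 bp. The curves of distance to the other list fell steeply up to 200 bp and then flattened, and the DOP curve stayed above the untreated one from about 500 to 800 bp. A distance of 600 to 800 bp was found for 531 DOP events, 20.2% (18.7% to 21.8%) of them, and for 314 untreated events, 14.5% (13.1% to 16.1%). At 200 to 300 bp the counts were close, with 709 and 671. The median distance was 430 bp (quartiles 289 and 616) for DOP events and 387.5 bp (quartiles 274 and 568) for untreated events.

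**Figure D1:**
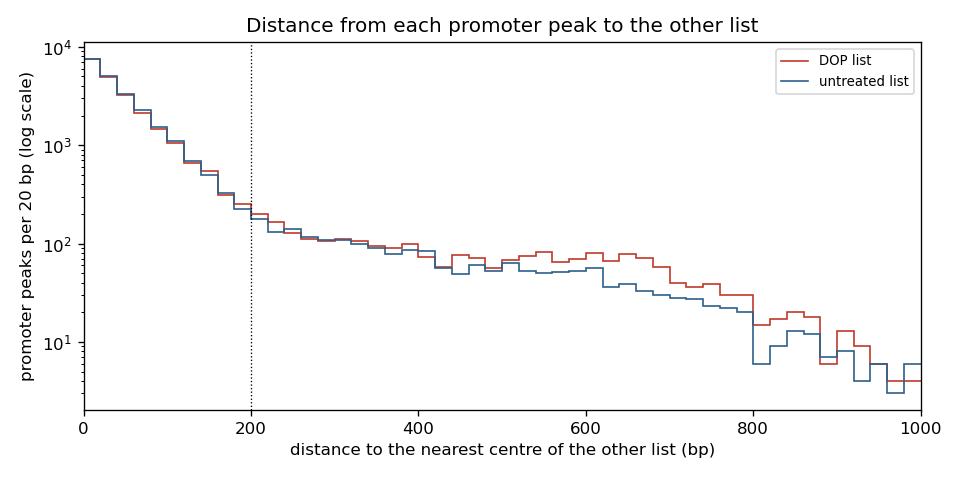
Promoter peaks of the DOP list (red) and the untreated list (blue) by the distance from their centre to the nearest centre of the other list, in bp, counted per 20 bp on a log scale; the dotted line marks 200 bp, beyond which full intervals no longer overlap. Both curves fall steeply up to the line and flatten beyond it, and from 500 to 800 bp the DOP curve lies above the untreated curve.

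The rule keeps an unshared event at least 200 bp from each centre of the other list, and thereby away from the position where shared events were most frequent. Shared promoter peaks were concentrated just inside the transcribed region, where 54.7% of them in the DOP list and 55.3% in the untreated list lay 0 to 400 bp downstream of the start. There, 371 unshared DOP events, or 14.1% (12.9% to 15.5%), and 309 untreated events, or 14.3% (12.9% to 15.8%), were found. Promoter peaks more than 2 kb from the other list had 55.0% and 54.1% there. Such peaks lie farther from shared events than the rule requires. They therefore do not show where unshared events would fall without the rule. The unshared events under the rule formed a group on each side, upstream of the start and beyond 400 bp into the gene.

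The lists differed in how these groups were weighted. Of the unshared DOP events, 1326 of 2625 lay upstream of the start, or 50.5% (48.6% to 52.4%), against 873 of 2162 untreated events, or 40.4% (38.3% to 42.5%). Among shared promoter peaks the upstream share was 22.5% and 22.2%, so the gap between lists was small there. The window from 200 to 400 bp upstream, where the nucleosome before the depleted region commonly lies, held 612 DOP events (23.3%, 21.74% to 24.97%) and 361 untreated events (16.7%, 15.18% to 18.33%), and 7.89% and 7.59% of the shared peaks. From 400 to 1000 bp downstream the order was reversed, with 928 DOP events (35.4%, 33.5% to 37.2%) and 980 untreated events (45.3%, 43.2% to 47.4%). The median position relative to the start was −13 bp in the DOP list (quartiles −343 and 577 bp) and 241 bp in the untreated list (quartiles −290 and 638 bp), and 228 and 229 bp for shared peaks, with downstream positive. The upstream share was higher in the DOP list than in the untreated list under each alternative setting that gave both values. Whether this came from the treatment or from how the 2 lists were called cannot be told apart, as each condition has 1 list.

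**Figure D2:**
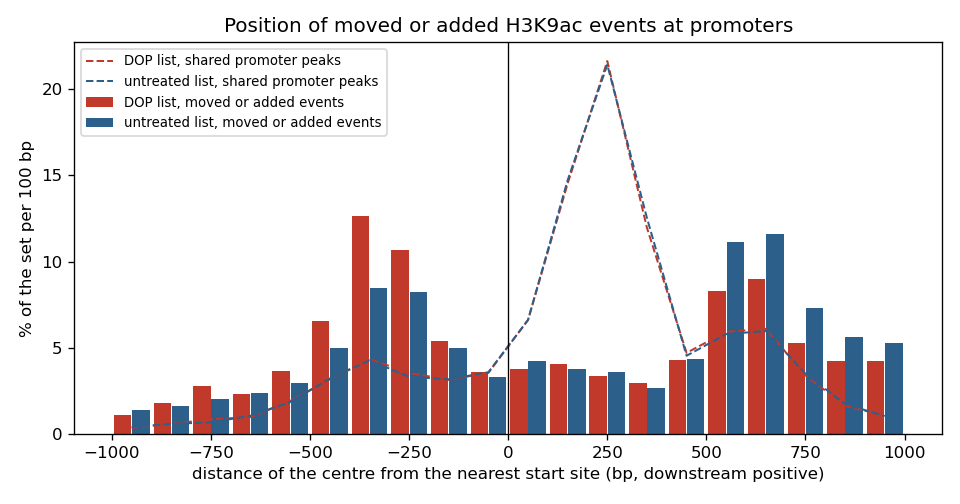
Position of unshared promoter events (bars) and of shared promoter peaks (dashed lines) in the DOP list (red) and the untreated list (blue), as the percentage of each set per 100 bp of distance from the nearest start, with downstream positive. The bars form a group on each side of the shared maximum, and the DOP bars are taller from 200 to 400 bp upstream (23.3% against 16.7%) while the untreated bars are taller from 400 to 1000 bp downstream (45.3% against 35.4%).

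Unshared events were centred mostly in introns or outside protein-coding genes. The centre lay outside protein-coding genes for 39.6% of unshared DOP events and 28.6% of unshared untreated events, against 14.2% and 13.9% of shared promoter peaks. An intron held 46.2% of the DOP and 55.0% of the untreated events, a 5′ UTR 9.18% and 9.81%, and a coding exon 4.23% and 5.87%. For shared promoter peaks of the DOP list the 5′ UTR held 17.5% and coding exons 14.8%. Starts on both strands were found within 1 kb for 10.3% (9.22% to 11.5%) of DOP and 11.7% (10.4% to 13.1%) of untreated events, and for 12.4% of shared peaks in either list, so divergent promoters were not more frequent here than among shared peaks.

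Unshared events were weak within their own list. The score is the authors' value for a peak. It serves here to rank peaks, as the percentage of the list that scored no higher. A fixed cut on the score itself was used in an alternative setting only. The median percentile was 30.2 in the DOP list (quartiles 17.7 and 47.0) and 30.0 in the untreated list (quartiles 17.2 and 48.6), against 63.7 and 62.1 for shared promoter peaks and 10.9 and 11.2 for promoter peaks with nothing of the other list in reach. Paired events ranked higher, with medians of 40.8 in the DOP list and 39.0 in the untreated list, than added events, with 28.0 and 27.8. By position, the medians were 39.6 for DOP and 39.9 for untreated events less than 400 bp downstream of the start. From 200 to 400 bp upstream the medians were 26.7 and 23.2. The upper 50% of its list by score held 582 unshared DOP events (22.2%) and 503 untreated events (23.3%).

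For most added upstream events the other list had no event upstream within 1 kb. The rule keeps an added event at least 200 bp from each centre of the other list, which favours sides left empty there. Upstream sides were also often empty in general. Of 10007 genes with a downstream event in both lists, 5136 had no upstream event in either. The shares below are therefore descriptions without a test. Of 1124 added DOP events upstream of a start, 886 (78.8%, 76.3% to 81.1%) had no event of the untreated list on that side within 1 kb. Of 715 added untreated events upstream, 529 (74.0%, 70.6% to 77.1%) had no DOP event there. Added events downstream extended a side that was already occupied, with no event of the other list on that side for 194 of 1040 in the DOP list (18.7%) and 171 of 1012 in the untreated list (16.9%). The most common arrangement in the DOP list, an added event upstream whose nearest untreated event lay downstream, was found 877 times (40.5%, 38.5% to 42.6%), and its mirror in the untreated list 517 times (29.9%, 27.8% to 32.1%). In both lists added events were mostly outer events, and 70.4% of DOP and 71.3% of untreated ones lay farther from the start than the nearest event of the other list. The rule keeps added events away from shared peaks, which were most frequent 0 to 400 bp downstream of the start. Their outer position thus follows in part from the choice and gets no test.

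Counted over genes, 10007 had a downstream event in both lists when each peak was given to the gene of its nearest start. An upstream event within 1 kb was present in both lists at 3218 of them, for DOP alone at 1000 (9.99%, 9.42% to 10.6%), for untreated cells alone at 653 (6.53%, 6.06% to 7.03%) and in neither list at 5136. The reverse case was more even. Of 3727 genes with an upstream event in both lists, 129 (3.46%) had a downstream event for DOP alone and 100 (2.68%) for untreated cells alone.

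Each added event had, by definition, a shared event as its neighbour, and that neighbour was nearly always the stronger one. It outranked the added event of the same list in 2051 of 2164 cases for DOP (94.8%) and 1596 of 1727 for untreated events (92.4%). Shared promoter peaks as a whole also ranked higher, with medians of 63.7 and 62.1 against 28.0 and 27.8 for added events, and these shares largely restate that difference. The median percentile of the neighbour was 69.9 in the DOP list and 68.3 in the untreated list where the event was added in the DOP list. Where the event was added in the untreated list, the neighbour's median was 68.0 in the untreated list and 70.1 in the DOP list. The neighbour ranked lower in the list that held the added event in 53.4% of cases for DOP (51.3% to 55.5%) and 67.0% for untreated events (64.7% to 69.2%). Over all shared promoter peaks the corresponding shares were 46.6% and 61.4%, below those of the neighbours but in the same order.

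The neighbour was also placed slightly differently in the list with the added event. It lay farther from the added event than its counterpart in the other list in 1392 of 2164 cases for DOP, or 64.3% (62.3% to 66.3%), and in 1136 of 1727 for untreated events, or 65.8% (63.5% to 68.0%). The median displacement was 16 bp (quartiles −12 and 56 bp) and 17 bp (quartiles −11 and 61 bp), so both directions occurred in both lists. The size of the displacement, with medians of 34 and 36 bp, was close to that of all shared promoter peaks, 33 and 34 bp. The neighbour was found as the other list's nearest event, so its positions were part of the choice and get no test.

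**Figure D3:**
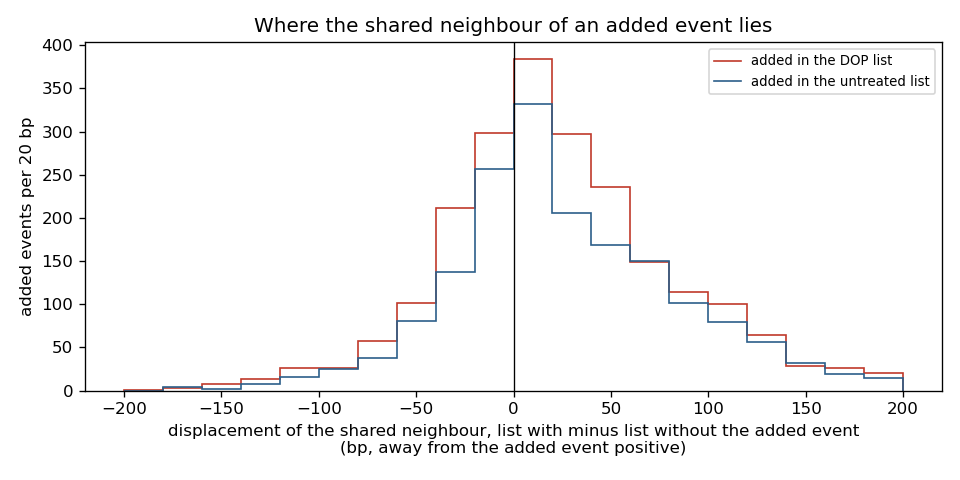
Displacement of the shared neighbour of each added event, in bp, as its centre in the list with the added event minus its centre in the other list, positive when it lies farther from the added event; the vertical axis gives added events per 20 bp, for 2164 DOP (red) and 1727 untreated (blue) events. Both curves peak between 0 and 20 bp and have a longer tail on the positive side, with medians of 16 and 17 bp.

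Displaced pairs numbered 460, each with a DOP and an untreated event that were nearest to each other among unshared events, and in 331 of them both events met the rule. The size of the shift had a median of 459 bp (quartiles 255 and 1065, range 200 to 1966 bp). In 167 pairs another event of either list lay between the partners, and their median shift was 1215 bp. The 293 pairs with no event between them had a median shift of 289 bp (quartiles 227 and 440), and 155 of these were shifted by less than 300 bp.

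Pairs with nothing between them were divided nearly evenly by direction. The DOP event was the downstream partner in 144 of 293, or 49.1% (43.5% to 54.8%), and lay farther from the start in 147, or 50.2% (44.5% to 55.9%). With both events downstream of the start, the DOP event was the outer one in 91 of 186 (48.9%, 41.8% to 56.1%), and with both upstream in 34 of 71 (47.9%, 36.7% to 59.3%). By size, shifts of 200 to 400 bp were upstream in 100 and downstream in 105 of these pairs, and shifts of 400 to 600 bp in 33 and 15. Over all 460 pairs the DOP event was downstream in 210, or 45.7% (41.2% to 50.2%). Partners lay on opposite sides of the start in 177 pairs, with the DOP event upstream in 103 and the untreated event upstream in 74.

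**Figure D4:**
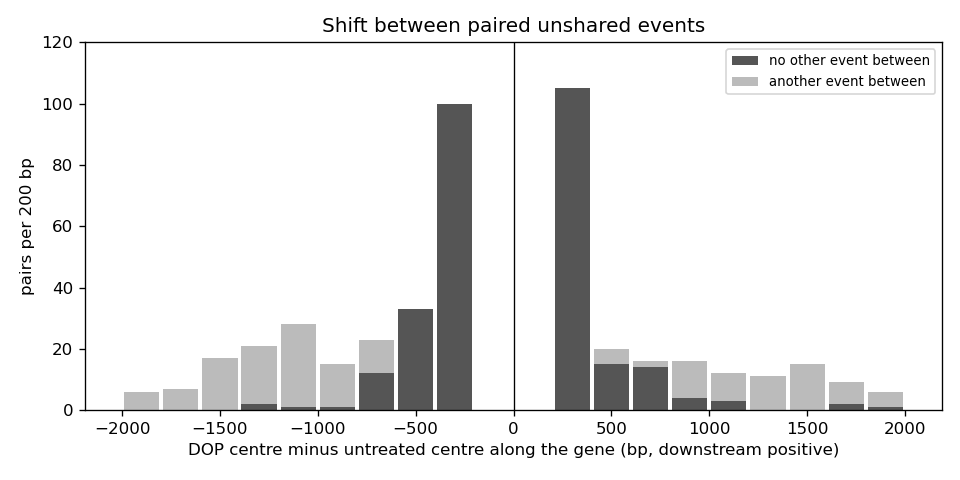
Shift of 460 pairs of unshared events, in bp, as the DOP centre minus the untreated centre along the gene, counted per 200 bp; dark bars are pairs with no other event between the partners and light bars are pairs with another event between. Of the dark bars, those at 200 to 400 bp hold 100 pairs upstream and 105 downstream and those at 400 to 600 bp hold 33 and 15, and nearly all pairs beyond 800 bp are light.

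The 6 pairs in which the weaker partner ranked highest were at Psmb10, Cdk13, Gas1, Vapa, H3f3b and Ier5l. At Psmb10 on chromosome 8, which encodes an inducible catalytic subunit of the immunoproteasome, the DOP event lay 394 bp downstream of the start at percentile 95.9. The untreated event lay at 600 bp at percentile 96.3, so that the DOP event was 206 bp nearer to the start. A shared event followed at 951 bp in the DOP list and 958 bp in the untreated list, and did not move with the pair.

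Cdk13 encodes a cyclin-dependent kinase that phosphorylates RNA polymerase II. In its pair on chromosome 13 the DOP event was the partner farther from the start. The DOP event, printed above, lay 879 bp downstream at percentile 98.5, and the untreated event 638 bp downstream at percentile 91.5. The untreated list held further unshared events at 1137 bp (percentile 98.8) and 1787 bp (percentile 84.7). The single DOP event thus fell between 2 strong untreated ones. The direction of the pair rests on the nearer of them, at 638 bp, being taken as the partner. Closer to the start, the DOP list had 1 shared event at 349 bp and the untreated list had 2, at 255 and 366 bp.

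At Vapa on chromosome 17, an endoplasmic reticulum protein at membrane contact sites, the DOP event lay at 646 bp (percentile 91.3) and the untreated event at 876 bp (percentile 90.2). The untreated list had 2 more unshared events upstream, 171 and 301 bp before the start, at percentiles 58.0 and 38.7. At H3f3b on chromosome 11, which encodes the histone variant H3.3, the DOP event lay at 672 bp (percentile 89.9) and the untreated event at 872 bp (percentile 87.7), and these are the abutting intervals printed above. Both genes thus had the DOP event nearer to the start, and both had a shared event before it, at 294 and 369 bp for Vapa and at 190 and 224 bp for H3f3b.

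At Gas1 on chromosome 13, a growth-arrest protein of the cell surface, the DOP event lay at 991 bp (percentile 98.5) and the untreated event at 206 bp (percentile 90.9), with a shared event between them at 448 bp in the DOP list and 524 bp in the untreated list. At Ier5l on chromosome 2, an immediate early response family gene, the DOP event lay at 935 bp (percentile 94.1) and the untreated event at 1762 bp (percentile 86.3), beyond the promoter window. A shared event lay between these as well, at 1295 bp (DOP) and 1222 bp (untreated), so the partners of Gas1 and Ier5l flanked an event that both lists had.

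The strongest added DOP events were at Dennd1b, Anp32e and 5031425E22Rik. Dennd1b on chromosome 1, an exchange factor for the Rab GTPases of endosomes, had 3 DOP events, at 18 bp (percentile 99.7), 375 bp (percentile 99.6) and 714 bp (percentile 91.3), where the untreated list had 1, at 269 bp (percentile 99.9). The untreated event lay between the first 2 DOP events. Anp32e on chromosome 3, a chaperone that removes the histone variant H2A.Z, had its added event at 299 bp (percentile 97.7). It stood between shared events that were at −79 and 673 bp in the DOP list and at 31 and 555 bp in the untreated list, so both neighbours lay farther from it in the DOP list. At 5031425E22Rik on chromosome 5 the added event lay 181 bp upstream (percentile 97.3), and the neighbouring shared events differed little, at −865 and 161 bp in the DOP list and −842 and 150 bp in the untreated list.

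The strongest added untreated events were at Gga3, Arid1b and Igf2bp1, and each filled a position just inside the gene where the DOP list had nothing. Gga3 on chromosome 11, an adaptor for sorting from the Golgi, had an untreated event at 141 bp (percentile 98.3), and its nearest DOP event lay 383 bp upstream of the start (percentile 99.4). Arid1b on chromosome 17, a subunit of the BAF chromatin remodelling complex, had untreated events at 450 bp (percentile 97.5) and −581 bp (percentile 60.3) between shared events at −958 and 1119 bp. Igf2bp1 on chromosome 11, a protein that binds messenger RNA, had its untreated event at 248 bp (percentile 97.2) between shared events at −594 and 1057 bp.

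**Figure D5:**
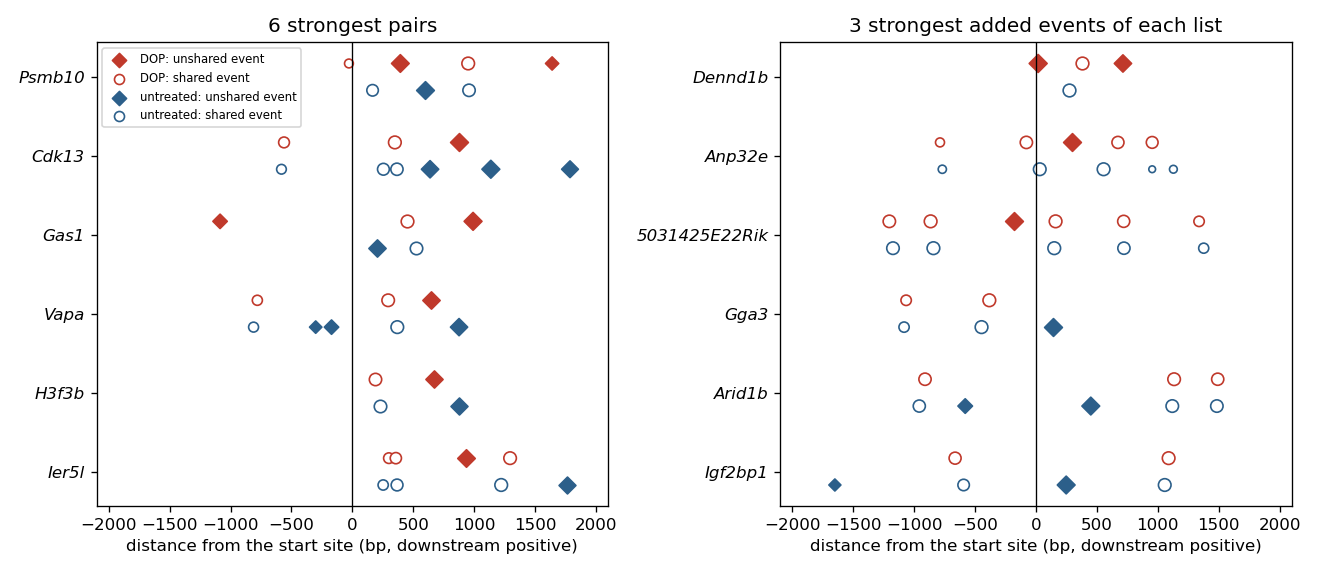
Events within 2 kb of the start at the genes of the 6 strongest pairs (left) and the 3 strongest added events of each list (right), by distance from the start in bp, with downstream positive; DOP events (red) are drawn above untreated events (blue), diamonds are unshared and open circles shared, and larger symbols have a higher score percentile. In all 6 pairs both partners lie downstream of the start, with the DOP event nearer to it at Psmb10, Vapa, H3f3b and Ier5l and farther from it at Cdk13 and Gas1.

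The number of events per promoter differed in both directions, with nearly equal totals when all peaks were counted. Of 11687 genes with an event within 1 kb of any of their starts, 3218 (27.5%) had more events in the DOP list, 3059 (26.2%) had fewer and 5410 (46.3%) had equal numbers. The balance was less even under cuts on the score, which did not treat the lists alike. In the upper 50% of each list by score, 2156 genes had more and 1796 fewer. That cut kept 15391 DOP and 15042 untreated promoter peaks. With a score of at least 100, 3072 had more and 2710 fewer. The median score was 418.7 in the DOP list and 399.8 in the untreated list, so a fixed score does not mark the same rank in both. Whether the excess goes beyond these differences was not tested. Over all peaks the mean was 2.44 events per gene in the DOP list and 2.42 in the untreated list. An unshared DOP event was present at 2514 genes (21.5%), an unshared untreated event at 2151 (18.4%), both at 404 (3.46%) and either at 4261 (36.5%). Most of these genes had a single one, with 2144 of the 2514 genes in the DOP list and 1896 of the 2151 in the untreated list. At the 2514 genes the mean was 3.20 DOP events against 2.26 untreated events, and at the 2151 genes 2.31 against 3.26. In the first group 1872 genes had more events in the DOP list, 534 had equal numbers and 108 had fewer. In the second, 1618 had fewer in the DOP list, 427 equal numbers and 106 more. The choice of genes fixes these directions. At the 404 genes with unshared events of both lists the numbers balanced, with 93 more, 90 fewer and 221 equal.

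The difference in events ranged from 5 fewer to 5 more in the DOP list, with 2 genes at 5 more, 9 at 4 more and 4 at 5 fewer, and ties were ordered by the percentile of the strongest event. Dlgap4, a scaffold protein of the postsynaptic density, and Klf3, a zinc finger repressor, had 7 DOP events and 2 untreated events each. Plekhh3 had 5 and 1, and its 3 added DOP events lay at 23 bp upstream, 193 bp downstream and 502 bp upstream of their nearest starts, at percentiles 64.1, 68.0 and 27.6. Not all of the excess was of the kind described here, since Dlgap4 had 2 added events and Klf3 had 1 (442 bp upstream, percentile 25.1), and the rest were shared or had no untreated event in reach. In the untreated direction, Arid1a, a BAF subunit and paralogue of Arid1b, had 1 DOP and 6 untreated events. Of these, 1 met the rule (256 bp downstream, percentile 56.5). The untreated Arid1a events at percentiles 98.7, 98.1 and 94.2 lay at another start, with no DOP event in reach. Orc4, a subunit of the origin recognition complex, had 4 and 9. Orc4 had 3 added untreated events, at 795 bp downstream and 182 and 665 bp upstream, at percentiles 26.5, 46.4 and 11.8. Gm10716 had 0 and 5, of which 3 met the rule, and at this gene no DOP event lay within the promoter window. Dlgap4 has 7 annotated starts spread over 131118 bp, so its events belong to more than 1 promoter.

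Genes that write, erase or read acetylation were among those with unshared promoter events. Of 16 deacetylase genes with a promoter event, 9 had an unshared one in either list, and of 20 acetyltransferase and reader genes 8 did, where the share over all 11687 genes was 36.5%. Ep300, the acetyltransferase p300, had a DOP event 219 bp upstream of the start at percentile 99.3 and an untreated event 882 bp downstream at percentile 72.0, a pair with 4 events between its partners. The untreated interval is annotated as 3′ UTR of a protein-coding transcript. Brd2, a bromodomain reader of acetylated histones, had an added event in each list, 271 bp upstream (untreated, percentile 78.5) and 831 bp upstream (DOP, percentile 74.4) of different starts. Hdac2, a class I deacetylase, had a pair with nothing between, the DOP event at 647 bp (percentile 58.4) and the untreated event at 880 bp (percentile 50.7). Hdac10 had an added untreated event at 91 bp (percentile 66.4), and Sirt7 an added DOP event 323 bp upstream (percentile 52.1).

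DOP inhibits the product of Sgpl1, and of 18 sphingolipid genes with a promoter event 5 (27.8%) had an unshared one, where the share over all genes was 36.5%. Sphk1, which makes sphingosine-1-phosphate, had an added DOP event 52 bp upstream (percentile 50.3). Smpd2, a sphingomyelinase, had an added untreated event 215 bp upstream (percentile 38.7), nearer to the start of the neighbouring Ppil6. Asah1, an acid ceramidase, had an added untreated event at 638 bp (percentile 33.9). Degs1, a desaturase of ceramide synthesis, had an added DOP event 234 bp upstream (percentile 18.9). Sgpl1 itself had 4 DOP and 5 untreated promoter events, none of them unshared. Of the genes that the study knocked down (Sgpl1, Ahnak, Tcf12 and Tns1) or ranked first (Bcl2l11 and Sp1), 5 had a promoter event and 2 of these an unshared one, where the share over all genes was 36.5%. Htt, Hdac1 and Hdac2 are genes whose proteins the study's question concerns. Htt and Hdac1 had an unshared untreated event each, and Hdac2 had 1 in each list. Of the 9 genes together, 8 had a promoter event and 5 of these (62.5%) an unshared one, against 36.5% of all genes. By number of events, 0 of the 8 had more in the DOP list, 5 fewer and 3 equal. Over all genes the shares were 27.5%, 26.2% and 46.3%. Bcl2l11, which encodes the apoptosis protein Bim, had 1 DOP and 2 untreated events, the added one at 878 bp (percentile 71.5). Htt, with 2 and 3 events, had an added untreated event at its start (0 bp, percentile 30.3), and Hdac1, with 2 and 3, had one at 731 bp (percentile 28.6). Sp1, a GC-box factor with 4 events in each list, had a pair in which the DOP event lay at 215 bp (percentile 32.9) and the untreated event 260 bp farther downstream (percentile 16.5). Ahnak had 2 and 3 events and Tcf12 had 4 in each list, none of them unshared, and Tns1 had no promoter event in either list.

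Genes of the stress and interferon response and of the cytoskeleton had unshared events about as often as all genes, but the 2 lists were unevenly represented. More of the stress and interferon genes had a DOP event, and more of the cytoskeleton genes an untreated one. All 33 stress and interferon genes had a promoter event, and 10 had an unshared DOP event and 2 an unshared untreated one, where the shares over all genes were 21.5% and 18.4%. For either list together the share was 12 of 33, near the 36.5% of all genes. Cdkn1a, the cell cycle inhibitor p21, had an added DOP event at 696 bp (percentile 67.0). Rela, a subunit of NF-kappaB, had one at 102 bp (percentile 64.7), and Irf3, an interferon regulatory factor, had 2, at 453 bp (percentile 56.8) and beside the start of the neighbouring Bcl2l12 (percentile 52.2). By number of events, 14 of these genes had more in the DOP list, 6 fewer and 13 equal numbers, against 27.5%, 26.2% and 46.3% of all genes.

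Of 26 cytoskeleton genes with a promoter event, 3 had an unshared DOP event and 7 an unshared untreated one, where the shares over all genes were 21.5% and 18.4%. For either list together the share was 9 of 26 (34.6%), near the 36.5% of all genes. By number of events, 3 had more in the DOP list, 12 fewer and 11 equal numbers, against 27.5%, 26.2% and 46.3% of all genes. The non-muscle myosin gene Myh10 had an added untreated event at 432 bp (percentile 74.7). The actin genes both had an untreated event, Actb at 617 bp (percentile 62.6) and Actg1 at 513 bp upstream (percentile 73.9), the second paired with a DOP event 641 bp downstream of it. Clasp2, which stabilises microtubule ends, had 3 added untreated events, the strongest at 732 bp (percentile 58.9). The lists of genes were chosen with results of these data known, and these counts carry no test.

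The lists of axon and striatal genes stood near the background. Genes of axon growth and guidance had an unshared event at 10 of 26, with Efnb2, an ephrin ligand, highest (untreated, 762 bp, percentile 83.7). Its receptor Ephb4 had a pair in which the DOP event lay at 700 bp (percentile 64.3) and the untreated event at 928 bp (percentile 47.4). Striatal and neural factors had one at 8 of 22, among them the homeobox genes Meis2 (DOP, 771 bp upstream, percentile 75.2) and Meis1 (untreated, 343 bp upstream, percentile 66.7). The transcription factor Tcf3 had an added untreated event 253 bp upstream (percentile 66.9). Of the 7 cell type markers with a promoter event, Dlx1, Ebf1 and Foxp1 had an unshared one.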

How the data were processed

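H3K9ac ChIP-seq peaks of DOP-treated and untreated STHdh Q111 cells were analysed as 1 deposited list per condition. Alignment to mm9 is credited to Bowtie 2 in the methods and to BWA 0.7.10 in the submitters' processing notes, and events were called by the authors with GPS. The depth of each sample, the threshold of the call and the way the samples of a condition entered it are not given in the sources used here. Each deposited peak has an interval, a centre and a score of the authors, whose definition is not given. The score was used as a percentile within its own list. The exceptions were the alternative that applied the same fixed cut on the score to both lists, and the median scores given with it.

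Starts, exons and UTRs came from protein-coding genes of GENCODE vM1 (45975 distinct start sites), on the NCBIM37 assembly, whose chromosome lengths no peak exceeded. Overlap meant at least 1 bp. With 1 list per condition no test between conditions could be made, and counts, medians, quartiles and Wilson intervals are given. The members and gene lists were chosen with earlier results of these data known. Genes were named as the 6 pairs with the highest percentile of the weaker partner, the 3 added events of highest percentile and the 3 genes with the largest excess of events in each list, up to 4 events per gene list by percentile, and 9 genes that the study knocked down, ranked first or concerns. Ties in the excess were ordered by the percentile of the strongest event. Gene counts give a peak to each gene with a start within 1 kb of it. The functions were tested on 4000 simulated promoters, and 7 of 7 planted answers were recovered. Sequence was read from the assembly. Computations ran in numpy 2.4.6 and pandas 2.3.3 under Python 3.11.15, and matplotlib 3.10.9 drew the plots. The IgG sample was not used, and 1 gene list and some marker genes are not reported here.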

Additional observations from a re-analysis of the deposited data

How the results depend on the processing

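Of 163 values recomputed under 11 alternatives, 110 stayed within their interval or, for counts, within 1.5 times, and 53 did not. The upstream share remained higher in the DOP list in each alternative that gave it. That share, the restriction to pairs with no event between and the use of every transcript's start were added after the data were seen. Values outside the limits are given in the order DOP, untreated. With starts within 500 bp there were 1506 and 1054 unshared events (1255 and 862 added), 285 pairs with a median shift of 675 bp, median positions of −215 and −158.5 bp, the second now upstream of the start, and upstream shares of 67.7% and 61.6%. Within 2 kb the positions were 122 and 483.5 bp and the shares 45.9% and 35.7%. A reach of 1 kb gave a median shift of 319 bp. Counting centres under 300 bp apart as the same event left 196 pairs (median shift 963 bp), positions of −203.5 and 126 bp, percentiles of 27.5 and 27.6 and shares of 58.2% and 45.8%. With 100 bp there were 5455 and 5019 events, 2695 pairs (median shift 143 bp), a DOP position of 211 bp, percentiles of 39.6 and 40.1 and shares of 36.5% and 29.5%. The upper 50% of each list by score gave 1258 and 952 events (1054 and 758 added) and 202 pairs (405 bp). It left 1796 genes with fewer DOP events, against 2156 with more, a count that stayed within the limit. Positions were 169.5 and 371.5 bp, percentiles 58.9 and 59.2 and shares 39.8% and 27.5%. A score of at least 100 gave percentiles of 31.4 and 34.0 and an untreated share of 38.2%. The outermost start of each gene moved the untreated position to 329 bp, and starts of one strand only moved the DOP position to −90 bp and its share to 53.0%. Pairs with no event between numbered 293 (289 bp). No paired analysis was possible because each condition has 1 list, and for the same reason no replicate could be left out. The cause of these changes was not tested.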

Other observations

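Events of the same list also lay close to each other. In the DOP list 4473 of 25276 promoter peaks (17.7%) had another event of their own list under 200 bp away, and in the untreated list 5389 of 25008 (21.5%) did. Such doublets were found at 19.9% and 23.7% of shared promoter peaks but at 55 unshared events in each list (2.10% and 2.54%). The rule keeps unshared events at least 200 bp from each centre of the other list and so from most shared events of their own list, and their low share is not a finding. The median distance to the nearest event of the same list was 438 bp for unshared DOP events and 410.5 bp for untreated ones, under the same constraint.

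The X chromosome held 86 unshared events among 630 DOP promoter peaks (13.7%) and 76 among 633 untreated promoter peaks (12.0%), the highest percentage of any chromosome in each list. On chromosome 15 the lists were farther apart, with 122 of 1127 DOP promoter peaks (10.8%) and 65 of 1075 untreated ones (6.05%). These percentages were looked up after the values were seen and were not tested.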
